A study of Mus musculus with 26 samples.

Results

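The comparison described here is that of left ventricles from castrated male mice with and without a gene trap in Uty, taken as gene trap minus wild type over all genes. It rests on the 14 castrated libraries of a series of 26, 7 from gene-trap and 7 from wild-type mice, chosen by their labels and not by any measured value. The gene-trap mice carried UtyGt(XS0378)Wtsi, an insertion within Uty, a gene of the Y chromosome, at its intron 4, and the controls were wild-type males of the isogenic strain C57BL/6.Y<129P2>. All had been castrated at about 10 days of age and were 40 days old, so that both genotypes lacked the testes as a source of androgen. The trap is carried in every cell of the body, so a difference in the ventricle need not arise in heart cells. RNA was counted by its 3′ ends, with a protocol made for the ends of polyadenylated transcripts. Within a group the labels number separate samples and do not tie them to animals, and p-values reflect the spread over these samples, which may be technical.

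Uty encodes the Y-linked relative of KDM6A, a demethylase of lysine 27 on histone H3, and is itself nearly without demethylase activity. A gene trap is a cassette with a splice acceptor and a polyadenylation signal, which ends the host transcript early. The postnatal ventricle moves from glucose to fatty acids as its main fuel, and pyruvate dehydrogenase, the enzyme complex that admits pyruvate to the citric acid cycle, is held back by a small family of kinases when fatty acids are burned. Pdk4 encodes the member of that family that responds most to fasting and to fatty acids, and Txnip a protein that binds thioredoxin and limits glucose uptake.

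Gene counts per library ran from 6612984 to 9399241, over 15999 to 16903 detected genes (at least 1 count). Gene-trap replicates 1 to 4 stood apart from the other gene-trap libraries. On the first principal component of log2 levels, with 32% of the variance, they scored 14.7 to 49.8. Wild-type replicate 5 scored 11.2, and the other libraries scored -8.3 or lower. On the second component, with 13.1%, these replicates did not lie together. Gene-trap replicates 1 to 3 scored -19.4 to -14.2 there, and replicate 4 scored 15.9. In the same 4 libraries 45.9% to 46.8% of the reads in the columns lacked a unique alignment, against 42.4% to 43.4% in gene-trap replicates 5 to 7 and 41.9% to 44.6% in wild type. Results are therefore given with these 4 libraries and without them, and without them 3 gene-trap libraries remain. Heart muscle RNA was abundant. The sum of 10 cardiomyocyte markers was 67900 to 105000 CPM in wild-type and 66000 to 100000 CPM in gene-trap libraries. CPM scale a gene's counts to the gene counts of its library. The list mixes genes, and its sum alone does not separate ventricle from atrium.

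Uty itself was nearly uncounted in mice with the trap. The gene (ENSMUSG00000068457, Y chromosome 1096861 to 1245759, GRCm38) had raw counts of 72, 51, 54, 100, 56, 69 and 94 in wild-type replicates 1 to 7 and of 3, 7, 7, 9, 8, 0 and 0 in gene-trap replicates 1 to 7. Every gene-trap library lay below every wild-type one. For the libraries at 0, the upper limit of 3 counts, for counting error alone, corresponds to 0.418 and 0.428 CPM of unscaled gene counts. The log2 fold change was -3.83 (SE 0.353, edgeR adjusted p = 5.72e-06), and -4.67 (SE 0.50) without gene-trap replicates 1 to 4, whose counts of 3 to 9 were not the lowest. The counted 3′ end lies downstream of the trapped intron, so these tags do not report a truncated product.

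Of the Y-linked genes, Ddx3y fell with Uty. Of 9 Y-linked genes in the list, 4 had enough counts to be tested, and 2 of these fell. Ddx3y (Y chromosome 1260771 to 1286629), a DEAD-box RNA helicase gene next to Uty, was at 96.9, 114 and 120 CPM (lowest, median and highest, n = 7) in wild-type and 6.29, 13.9 and 33.9 CPM in gene-trap ventricles, without overlap (edgeR log2 fold change -2.75, SE 0.265, adjusted p = 1.46e-05). Gene-trap replicate 2, with the highest Ddx3y of its group, also had the highest Kdm5d and Eif2s3y. Kdm5d, a demethylase gene for lysine 4 of histone H3, was at 2.85, 4.41 and 5.80 CPM in wild-type and 0.966, 2.23 and 3.71 CPM in gene-trap libraries (edgeR adjusted p = 0.0633). Eif2s3y, a translation initiation factor gene, was at 1.35, 2.59 and 3.87 CPM in wild-type and 2.97, 5.19 and 13.5 CPM in gene-trap libraries (edgeR adjusted p = 0.06). The groups overlapped for these last genes, and DESeq2 and limma voom called them both, Kdm5d lower (adjusted p = 0.00673 and 0.0388) and Eif2s3y higher (adjusted p = 0.0055 and 0.0258). Of 7 X homologues tested, 0 passed by edgeR, DESeq2 or limma voom, with 1 higher and 2 lower at an unadjusted p under 0.05 by edgeR. Kdm6a, the X homologue of Uty, was at 9.45 ± 2.09 CPM in wild type and 7.76 ± 1.68 CPM in gene trap (SD, n = 7; log2 fold change -0.29, SE 0.175).

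**Figure D1:**
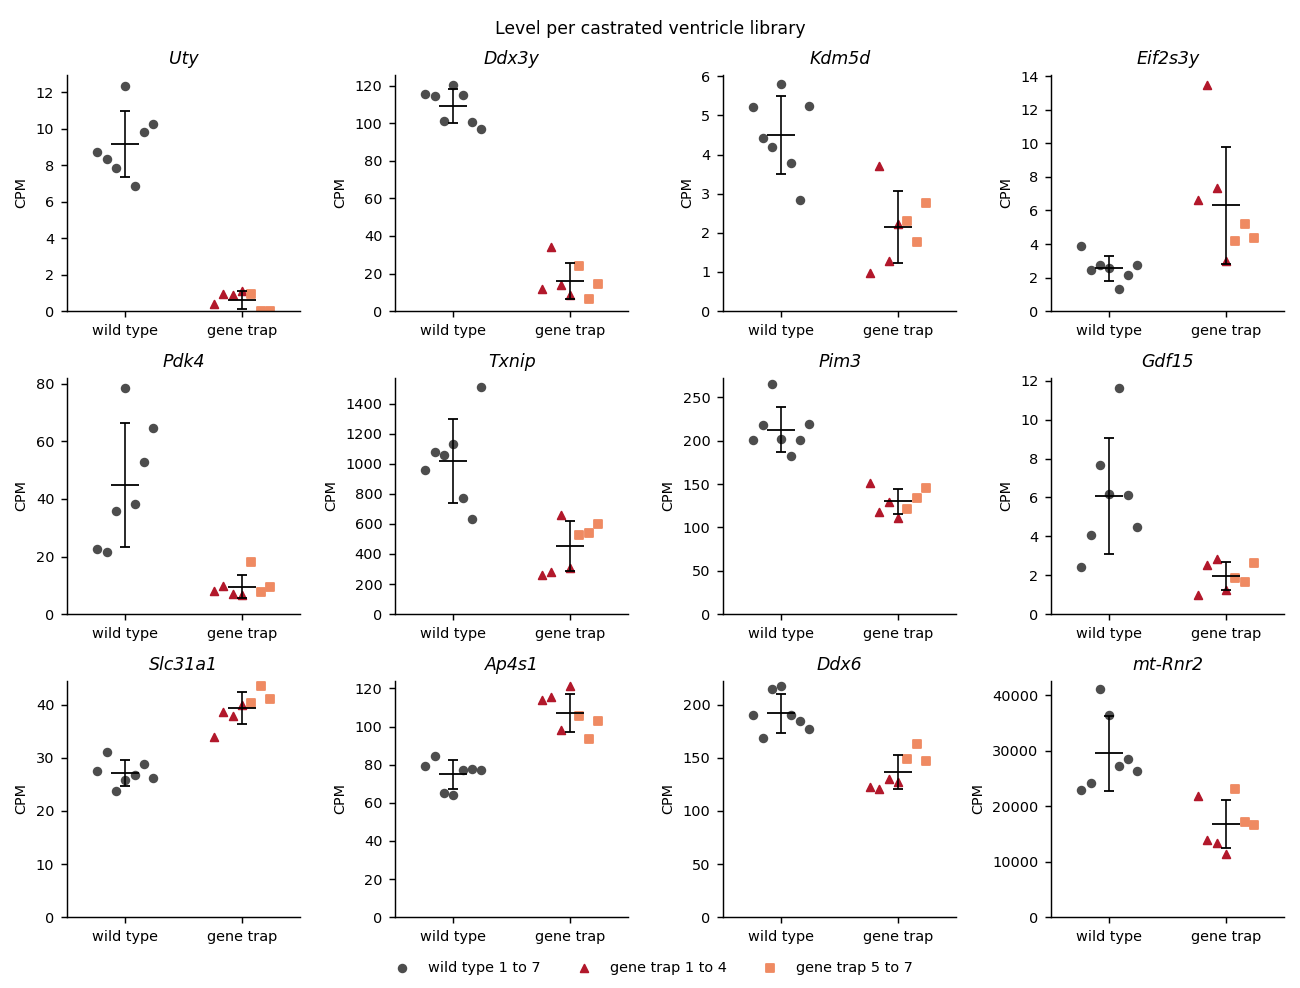
CPM of 12 genes in each castrated ventricle library, wild type as circles, gene-trap replicates 1 to 4 as triangles and 5 to 7 as squares, with mean ± SD over 7 libraries as bars. Uty, Ddx3y, Pdk4, Pim3 and Ddx6 are lower and Slc31a1 and Ap4s1 higher in every gene-trap library, whereas the groups overlap for Kdm5d, Eif2s3y, Txnip, Gdf15 and mt-Rnr2.

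Apart from the Y chromosome few genes passed. Of 11693 genes tested, 24 were called, or 0.205% (edgeR quasi-likelihood test, Benjamini-Hochberg threshold 0.05), 11 higher and 13 lower in gene trap, and 22 of them lie outside the Y chromosome. Before adjustment 1260 higher and 1126 lower genes of the 11693 had a p under 0.05, the background for the unadjusted counts of list members. DESeq2 called 481 genes (4.11%) and limma voom 278 (2.38%), and 23 of the 24 were called by both of them; for Efna2 DESeq2 gave no adjusted p. In 12 of the 24 the libraries of the genotypes did not overlap, 6 higher and 6 lower, against 0.419% of all genes tested. Without gene-trap replicates 1 to 4, all 24 had the same sign and 2, Uty and Ddx3y, were called. Uty, Ddx3y, Pdk4 and Pim3 were called whichever single library was left out, and the other 20 in 5 to 7 of the 14 such fits. The count of calls was 4 without wild-type replicate 3 or 7 or gene-trap replicate 2 or 4, and 5 without wild-type replicate 4 or 6 or gene-trap replicate 3. It was 6 without gene-trap replicate 1, 12 without wild-type replicate 5, 58 without gene-trap replicate 6, 107 without gene-trap replicate 7, 109 and 144 without wild-type replicate 1 and 2, and 418 without gene-trap replicate 5.

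**Figure D2:**
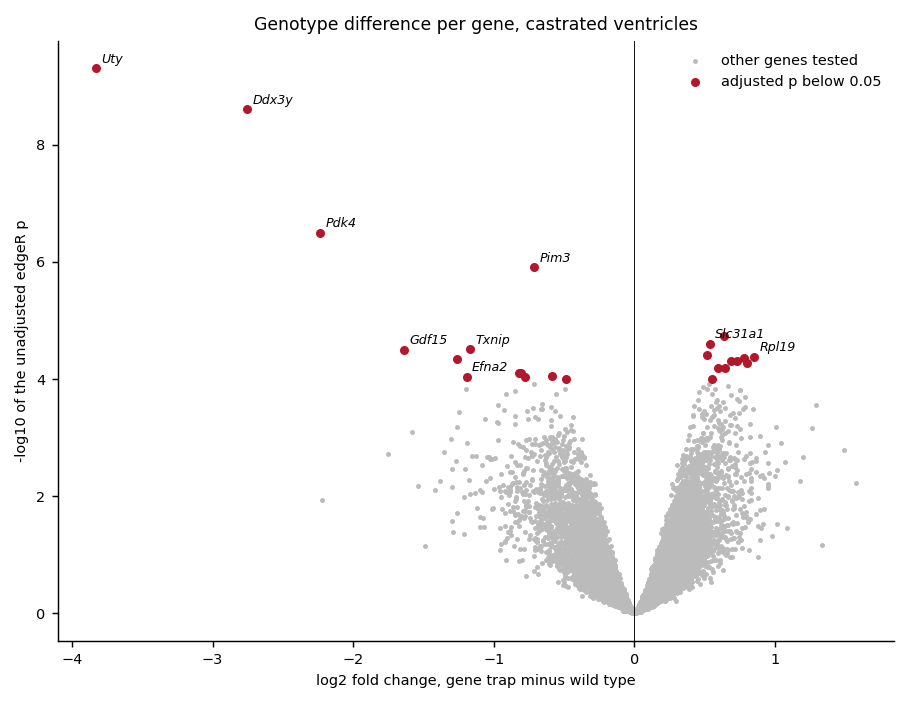
Log2 fold change (gene trap minus wild type) against -log10 of the unadjusted edgeR p for the 11693 genes tested, with the 24 called genes in red. Uty, Ddx3y, Pdk4 and Pim3 lie above the others, and all but 7 of the called genes changed by less than 1 log2 unit.

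Pdk4 was lower in every gene-trap ventricle. Pdk4 (ENSMUSG00000019577, chromosome 6, 5483351 to 5496309) was at 22.5, 21.4, 35.9, 78.5, 38.3, 52.7 and 64.6 CPM in wild-type replicates 1 to 7 and at 7.87, 9.66, 6.95, 6.81, 18.3, 7.52 and 9.32 CPM in gene-trap replicates 1 to 7. Wild-type levels spread widely, and gene-trap replicate 5 stood above the rest of its group while staying below the lowest wild-type library. The log2 fold change was -2.24 (SE 0.292, edgeR adjusted p = 0.00123), the largest outside the Y chromosome among the called genes. Without gene-trap replicates 1 to 4 it was -1.93 (SE 0.482, edgeR adjusted p = 0.257), and leaving out single libraries it ran from -2.49 to -2.04. The other kinase genes of pyruvate dehydrogenase, Pdk1, Pdk2 and Pdk3, had log2 fold changes of -0.02, 0.05 and 0.03, and none passed. Of the 7 genes of kinases, phosphatases and their regulator, Pdk4 alone passed by edgeR, 1 lower and 0 higher. The list median was -0.02 against 0.00 over all genes, and -0.22 without gene-trap replicates 1 to 4. Pdpr, the regulatory subunit of the phosphatase, was at 53.3 ± 5.17 CPM in wild type and 40.5 ± 6.42 CPM in gene trap (edgeR adjusted p = 0.0875), and was called by DESeq2. Of 7 genes of the complex itself and of the pyruvate carriers, 0 passed by edgeR, with 2 higher and 0 lower at an unadjusted p under 0.05; DESeq2 called 0 and limma voom 1, the pyruvate carrier gene Mpc2, higher (log2 fold change 0.32).

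Txnip followed the same direction at a far higher level. Txnip (ENSMUSG00000038393, chromosome 3, 96557957 to 96561883) was at 956, 1078, 1057, 1132, 773, 632 and 1510.5 CPM in wild-type replicates 1 to 7. In gene-trap replicates 1 to 7 it was at 257, 280, 660, 309, 529, 538 and 596 CPM. The groups met at gene-trap replicate 3, which lay above wild-type replicate 6, and 6 of 7 gene-trap libraries were below every wild-type one. Txnip fell by 1.17 on the log2 scale (SE 0.219, edgeR adjusted p = 0.0412), and the value was -0.88 (SE 0.202, edgeR adjusted p = 0.205) without gene-trap replicates 1 to 4. An exon of the predicted gene Gm15441 overlaps Txnip on the opposite strand, and since no source used here states the strand setting, reads of the pair cannot be told apart. Of 18 genes of arrestin-domain proteins, thioredoxins and peroxiredoxins, Txnip alone passed by edgeR, with 0 higher; DESeq2 called Arrdc3 lower as well, and limma voom Txnip alone. The median was -0.03, and -0.14 without gene-trap replicates 1 to 4. Arrdc3, which encodes another arrestin-domain protein, was at 20.6 ± 2.86 CPM in wild type and 15.6 ± 2.41 CPM in gene trap (edgeR adjusted p = 0.109).

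The promoters of this pair are shown because both genes answer to the fuel state of the cell. Each window runs from 250 bases before to 50 bases after the gene start on the gene's own strand (RefSeq, GRCm38.p6). Capitals mark matches on either strand to a forkhead motif (GTAAACA) and to the half-sites (CACGAG) of a glucose response element; the E-box CACGTG was searched as well. The Pdk4 window is chr6:5496229-5496528, minus strand, and the Txnip window chr3:96557707-96558006, plus strand.
Pdk4: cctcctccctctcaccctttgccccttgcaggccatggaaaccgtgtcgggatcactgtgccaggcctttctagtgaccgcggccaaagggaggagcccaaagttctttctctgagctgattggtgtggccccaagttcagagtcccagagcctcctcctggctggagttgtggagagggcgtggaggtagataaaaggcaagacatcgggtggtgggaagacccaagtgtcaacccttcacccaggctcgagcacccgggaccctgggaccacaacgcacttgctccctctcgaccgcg
Txnip: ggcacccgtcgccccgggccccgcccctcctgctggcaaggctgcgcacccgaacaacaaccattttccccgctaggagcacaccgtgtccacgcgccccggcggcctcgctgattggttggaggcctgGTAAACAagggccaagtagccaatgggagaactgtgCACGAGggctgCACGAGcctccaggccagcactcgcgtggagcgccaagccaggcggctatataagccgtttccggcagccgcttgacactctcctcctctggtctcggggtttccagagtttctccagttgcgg
The Txnip window held 1 forkhead match, starting 121 bases before the gene start, and 2 half-sites, starting 85 and 74 bases before it. The half-sites lie 5 bases apart, as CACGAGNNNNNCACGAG, an arrangement found in 1 of 32851 promoter windows, that of Txnip. Only these exact letters were searched, so the count does not cover other forms of the element. Alone, the forkhead motif occurs in 3.65%, the half-site in 6.47% and the E-box in 7.15% of the windows, and the pair counts in the half-site figure too. The Pdk4 window held 0 matches to any of them. A match is a run of letters and not a shown binding site.

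Other genes of fuel use did not pass by edgeR. Of 33 genes of fatty acid uptake and oxidation, 0 passed by edgeR, with 3 higher and 6 lower at an unadjusted p under 0.05, and a median log2 fold change of 0.02 that was -0.09 without gene-trap replicates 1 to 4. DESeq2 called Ucp3 and Fabp3 lower and limma voom 0. Over all 11693 genes tested, 1260 were higher and 1126 lower at an unadjusted p under 0.05. Ucp3, a mitochondrial carrier gene induced by fatty acids, was at 10.9, 22.4 and 44.5 CPM (lowest, median, highest) in wild-type and 9.80, 13.3 and 16.7 CPM in gene-trap libraries (edgeR log2 fold change -0.97, SE 0.223, adjusted p = 0.06). Angptl4, the inhibitor of lipoprotein lipase, was at 7.14, 20.9 and 44.6 CPM against 3.87, 11.5 and 15.2 CPM (edgeR log2 fold change -1.18, SE 0.369, adjusted p = 0.112). Fabp3, the fatty acid binding protein of heart, was at 5620 ± 1521 CPM against 4073 ± 432 CPM (edgeR adjusted p = 0.103). For these 3 genes the highest library was a wild-type one, and the groups overlapped. Of 12 genes of PPAR and PGC-1 factors, which drive fatty acid oxidation genes, 0 passed by any of the 3 tools, with 1 higher and 1 lower at an unadjusted p under 0.05. Of 21 genes of glucose uptake and glycolysis, 0 passed by edgeR, with 6 higher and 1 lower at an unadjusted p under 0.05; DESeq2 called Gapdh and Ldha higher and Pfkfb2 lower, and limma voom the first 2. The list median was 0.15 with all libraries and -0.13 without gene-trap replicates 1 to 4. Gapdh and Ldha, glycolytic enzyme genes, had log2 fold changes of 0.73 (SE 0.164) and 0.49 (SE 0.116), and Pfkfb2, which makes the activator of phosphofructokinase in heart, of -0.75 (SE 0.198). Of the transcript ends of Gapdh, Ldha and Fabp3, 49.7%, 22.4% and 18.9% recur in other genes, so their values are uncertain.

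Pim3 and Gdf15 were lower, the former in every library. Pim3 (chromosome 15, 88862186 to 88865718), a serine/threonine kinase gene that promotes survival and growth, was at 183, 202 and 265 CPM (lowest, median, highest, n = 7) in wild-type and 111, 129.9 and 151 CPM in gene-trap ventricles. The highest gene-trap library was below the lowest wild-type library. It fell by 0.71 on the log2 scale (SE 0.106, edgeR adjusted p = 0.00359), and the value was -0.67 (SE 0.126, edgeR adjusted p = 0.103) without gene-trap replicates 1 to 4. Of 25 genes of Pim, Akt, GSK3 and mTOR signalling Pim3 alone passed by edgeR, with 0 higher, and DESeq2 and limma voom each called Pim3, Akt2 and Gsk3b lower. Akt2, the insulin-signalling kinase, was at 248 ± 82 CPM in wild type and 163 ± 33.1 CPM in gene trap (edgeR adjusted p = 0.0865). Gdf15 (chromosome 8, 70629393 to 70632456), a secreted cytokine of the integrated stress response, was at 2.42, 6.13 and 11.6 CPM in wild-type and 0.966, 1.85 and 2.83 CPM in gene-trap libraries, with overlap at the lowest wild-type library, replicate 1. It fell by 1.64 (SE 0.309, edgeR adjusted p = 0.0412), with -1.58 (SE 0.41) without gene-trap replicates 1 to 4. Of 20 genes of that response and of mitochondrial stress signals Gdf15 alone passed by edgeR, with 0 higher and a list median of -0.17 with and without those replicates. DESeq2 and limma voom each called Ppp1r15a lower beside Gdf15. In the same list Atf5, a transcription factor of the response, was at 32.9 ± 11.2 CPM against 22.1 ± 2.92 CPM (edgeR adjusted p = 0.104).

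The other nuclear decreases concerned genes of varied roles. Efna2, an ephrin ligand gene, was at 2.03, 2.30 and 3.82 CPM in wild-type and 0.743, 1.27 and 1.32 CPM in gene-trap libraries, a low level at which the groups did not overlap (edgeR log2 fold change -1.19, SE 0.247, adjusted p = 0.0487). Ddx6, an RNA helicase gene of processing bodies, was at 169, 189.9 and 218 CPM against 120.3, 129.9 and 163 CPM, also without overlap, and fell by 0.49. Slc38a10, an amino acid transporter gene, fell by 0.59, with 25.6 ± 2.73 CPM in gene trap against 38.4 ± 6.28 CPM in wild type. F830016B08Rik, a mouse gene of the interferon-inducible GTPase family, fell by 1.26, and 28.1% of its transcript end recurs in other genes. Without gene-trap replicates 1 to 4 these 4 genes had log2 fold changes of -1.04, -0.33, -0.56 and -0.92, none of them called.

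Among the increases, the copper transporter gene Slc31a1 had the smallest p of the genes whose transcript ends do not recur in other genes. Slc31a1 (chromosome 4, 62360727 to 62391769), which imports copper into cells, was at 27.6, 31.2, 23.7, 25.8, 26.8, 28.9 and 26.2 CPM in wild-type replicates 1 to 7. It was at 34.0, 38.6, 38.0, 39.97, 40.3, 43.6 and 41.1 CPM in gene-trap replicates 1 to 7, all above wild type, and gene-trap replicates 5 to 7 held the highest levels. It rose by 0.54 on the log2 scale (SE 0.0994, edgeR adjusted p = 0.0412), and the value was 0.62 (SE 0.117, edgeR adjusted p = 0.103) without gene-trap replicates 1 to 4. Its neighbour in the family, Slc31a2, was at 7.84, 10.7 and 18.3 CPM (lowest, median, highest) in wild-type and 14.2, 19.7 and 28.7 CPM in gene-trap libraries (edgeR log2 fold change 0.79, SE 0.182, adjusted p = 0.06). Of 15 copper handling and metallothionein genes Slc31a1 alone passed by edgeR, with 0 lower and a median of 0.04, and DESeq2 and limma voom each called Slc31a2 higher as well. Ap4s1 (chromosome 12, 51691033 to 51744786), a subunit of the AP-4 adaptor complex, was at 63.8, 77.3 and 84.3 CPM against 93.6, 105 and 121 CPM, without overlap, and rose by 0.52 (SE 0.0997). Of 15 adaptor and coat genes it alone passed by edgeR, DESeq2 or limma voom. Fam212b, which encodes an inhibitor of the kinase PAK4, was at 8.72, 12.6 and 17.8 CPM against 19.2, 23.5 and 29.6 CPM and Krtcap2, a subunit of the oligosaccharyltransferase, at 57.4, 64.5 and 79.3 CPM against 79.8, 109 and 136 CPM. They rose by 0.78 and 0.69 without overlap, and without gene-trap replicates 1 to 4 the values were 0.77 and 0.31. Hspe1, the mitochondrial co-chaperone of Hspd1, rose by 0.59, from 103 ± 21 to 156 ± 13.4 CPM, with 0.64 without those replicates. Its value is uncertain, since Hspd1 overlaps it on the opposite strand and 36.2% of its transcript ends recurs in other genes. Of 24 chaperone genes Hspe1 alone passed by edgeR. DESeq2 called Hspe1, Dnajb1, Hspb1 and Hspa1b higher and Hspb8 lower, and limma voom called Hspe1, Dnajb1, Hspb1 and Hspb3 higher. For Hspb1 40.5% of the transcript ends recurs in other genes. Hspb8, a small heat shock protein gene of muscle, was at 1039, 1462 and 3186 CPM against 650, 817 and 1269 CPM (log2 fold change -0.85, edgeR adjusted p = 0.0684).

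**Figure D3:**
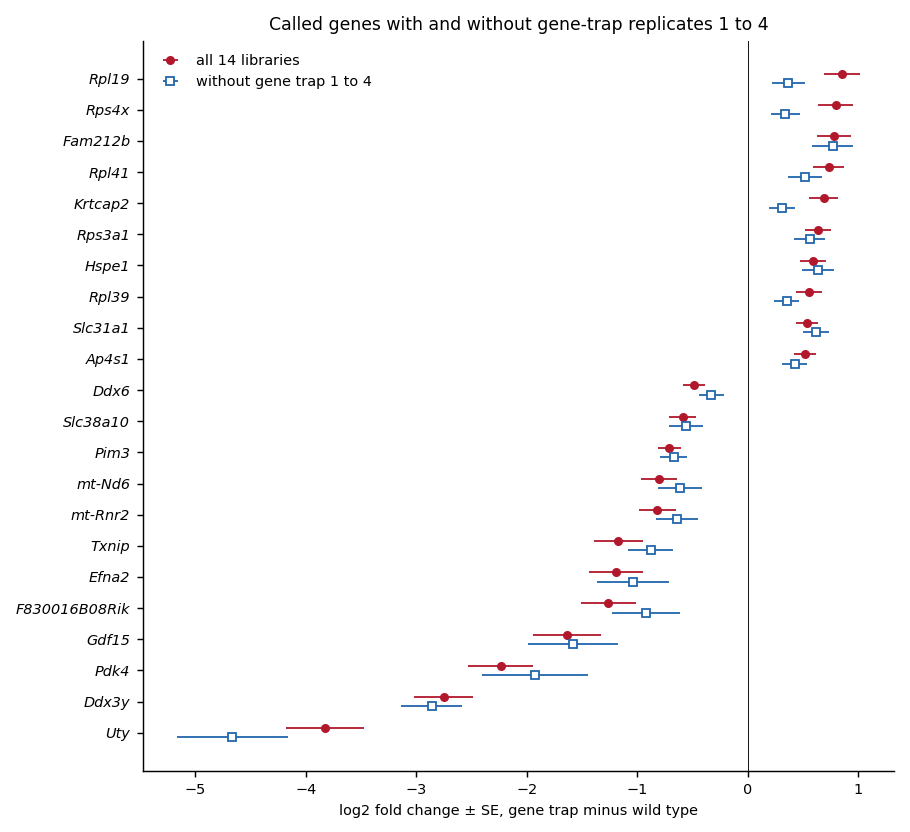
Log2 fold change ± SE of 22 of the 24 called genes with all 14 libraries (circles) and without gene-trap replicates 1 to 4 (squares). All 22 keep their sign; Fam212b, Slc31a1, Hspe1, Pim3 and Gdf15 have nearly the same value in both, and Rpl19, Rps4x and Krtcap2 have a smaller one.

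Cytosolic ribosomal protein genes made up 6 of the 11 increases, and the list means were highest in gene-trap replicates 1 to 4. Of 46 genes of the large subunit 3 rose and 0 fell, and of 32 of the small subunit 3 rose and 0 fell by edgeR; the background of calls was 0.205%. The list medians were 0.40 and 0.30, against 0.00 over all genes, and 0.27 and 0.16 without gene-trap replicates 1 to 4. DESeq2 called 25 and 12 of them higher and 0 lower, and limma voom 19 and 7 higher and 0 lower. Over all genes tested DESeq2 called 4.11% and limma voom 2.38%, both directions together. Rps3a1, of the small subunit, was at 69.1, 98.3 and 126 CPM (lowest, median, highest) in wild-type and 136, 152 and 166 CPM in gene-trap libraries without overlap, and rose by 0.64 (SE 0.116, edgeR adjusted p = 0.0412). Rpl39 rose by 0.55, also without overlap. Rpl19 was at 14.5, 17.8 and 20.98 CPM in wild type, 34.2 to 42.2 CPM in the first 4 gene-trap libraries and 20.6, 23.5 and 26.4 CPM in replicates 5 to 7. Its log2 fold change of 0.85 was thus 0.37 without the former. Rps4x and Rpl41 rose by 0.80 and 0.73, with 0.34 and 0.52 without them. The mean of the large subunit list, in log2 CPM centred on each gene's mean, was -0.309 to -0.00369 in wild type, 0.21 to 0.368 in gene-trap replicates 1 to 4 and -0.046 to 0.175 in replicates 5 to 7. For the small subunit the ranges were -0.261 to -0.0345, 0.213 to 0.355 and -0.111 to 0.0979. Gene-trap replicate 5 lay within the wild-type range in both lists. The share of reads without a unique alignment was also highest in replicates 1 to 4, and its part in these levels was not tested. The transcript ends of these genes recur in other genes for 1.83% to 94.1% of their sequence, with a median of 36.4%, so single values are uncertain. Of 36 translation initiation and elongation factors 0 passed by edgeR, with 8 higher and 2 lower at an unadjusted p under 0.05; DESeq2 called 3 and limma voom 4 of them higher.

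The larger mitochondrial ribosomal RNA was lower in gene-trap ventricles. The 16S ribosomal RNA gene mt-Rnr2 (mitochondrial genome 1094 to 2675) was at 22924, 27300.0 and 41152 CPM (lowest, median, highest) in wild-type and 11427, 16682 and 23020.0 CPM in gene-trap libraries. The groups overlapped at gene-trap replicate 5. It fell by 0.82 (SE 0.167, edgeR adjusted p = 0.0487), with -0.64 (SE 0.19) without gene-trap replicates 1 to 4. The 12S gene mt-Rnr1 was at 5935 ± 1086 CPM in wild type and 4085 ± 816 CPM in gene trap (log2 fold change -0.54, edgeR adjusted p = 0.0758), and was called lower by DESeq2 and limma voom. How a protocol for polyadenylated ends captured these ribosomal RNAs was not tested, so their values are uncertain. Of 8 mitochondrially encoded messenger RNAs mt-Nd6 fell by edgeR, by 0.81, and 0 rose, and DESeq2 called mt-Nd2 lower as well; mt-Nd6 overlaps mt-Nd5, with 4138 ± 665 CPM in wild type, on the opposite strand, so its 29.8 ± 6.91 CPM in wild type and 17.0 ± 4.17 CPM in gene trap are uncertain. Mitochondrially encoded genes together held 15.5% to 19.99% of the gene counts in wild-type and 12.7% to 17.6% in gene-trap libraries. In a bulk tissue, fewer cells of a type and less RNA per cell cannot be told apart. Of 36 complex I subunit genes, 28 of complexes II to IV and 17 of ATP synthase, 0 passed by edgeR. At an unadjusted p under 0.05, 22, 15 and 8 of them were higher and 0, 1 and 0 lower. DESeq2 called 9, 6 and 6 higher and limma voom 8, 3 and 3. Over all 11693 genes tested, 1260 were higher and 1126 lower at that unadjusted p. DESeq2 called 4.11% of all genes and limma voom 2.38%. The medians of the 3 lists were 0.32, 0.27 and 0.25, and 0.13, 0.12 and 0.14 without gene-trap replicates 1 to 4. Ndufb11 of complex I was at 375, 453 and 573 CPM in wild-type and 522, 639 and 896 CPM in gene-trap libraries (edgeR log2 fold change 0.59, SE 0.133, adjusted p = 0.06). Its transcript ends recur in other genes for 34.3% of their sequence. Cox7b of complex IV and Atp5c1 of ATP synthase had values of 0.48 (SE 0.115) and 0.49 (SE 0.119). Of 77 mitochondrial ribosomal protein genes 0 passed by edgeR, with 31 higher and 1 lower at an unadjusted p under 0.05; DESeq2 called 13 and limma voom 12 higher. Mrps22 was at 15.5 ± 2.49 CPM against 23.9 ± 5.11 CPM, a log2 fold change of 0.63 that was 0.80 without gene-trap replicates 1 to 4. Of 16 citric acid cycle genes 0 passed by edgeR, with 2 higher and 0 lower at an unadjusted p under 0.05, and DESeq2 and limma voom each called Mdh1 and Idh3b higher. Mdh1, the cytosolic malate dehydrogenase and so a list member outside the mitochondrial cycle itself, was at 1424, 1493 and 1984 CPM against 1903, 2184 and 2373 CPM (edgeR log2 fold change 0.45, SE 0.102, adjusted p = 0.06).

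**Figure D4:**
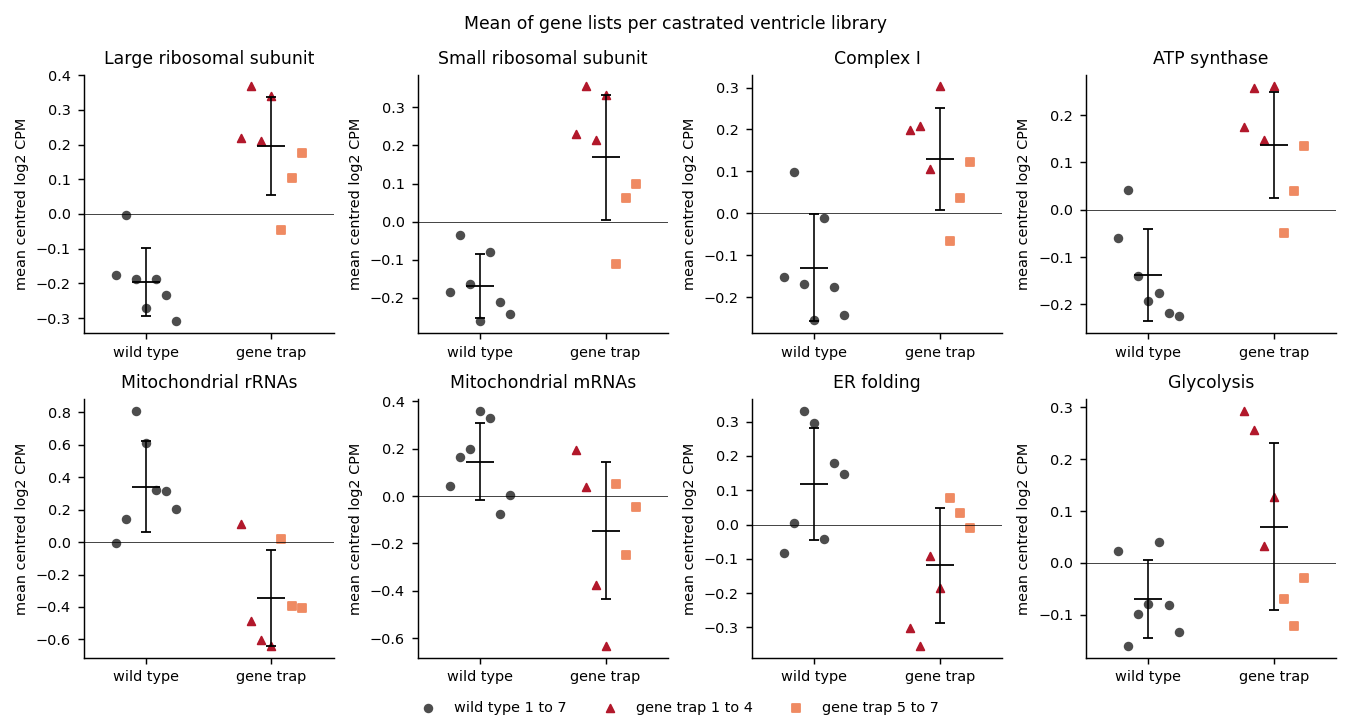
Mean centred log2 CPM of 8 gene lists in each castrated ventricle library, with the symbols of the plot of single genes and mean ± SD over 7 libraries. The large subunit list is at 0.21 to 0.368 in gene-trap replicates 1 to 4 and at -0.046 to 0.175 in replicates 5 to 7, against -0.309 to -0.00369 in wild type; mitochondrial ribosomal RNAs show no such order.

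Beyond the genes called by edgeR, 197 genes were called by DESeq2 and limma voom but not by edgeR, 115 higher and 82 lower. Of the named genes and clones with the smallest edgeR p among the higher ones, Slc25a12, the mitochondrial aspartate and glutamate carrier of the malate-aspartate shuttle, was at 150, 174 and 223 CPM in wild-type and 205, 258 and 301 CPM in gene-trap libraries (log2 fold change 0.53, SE 0.113). Rpl38, Mrpl13, Rplp2 and Aurkaip1, all genes of ribosomal or mitochondrial ribosomal proteins, had values of 0.66, 0.49, 0.57 and 0.51, and the antisense gene Toporsos one of 0.75. Toporsos spanned 64.1 to 88.1 CPM in the first 4 gene-trap libraries and 37.9 to 45.3 CPM in the last 3, against 33.5 to 39.0 CPM in wild type; as an antisense gene its level is uncertain without the strand setting. Of the lower ones, Hipk2, a kinase gene of the stress response, was at 33.9, 38.8 and 45.8 CPM in wild-type and 16.6, 22.6 and 33.5 CPM in gene-trap libraries without overlap (log2 fold change -0.72, SE 0.152). Fbxo32, the muscle ubiquitin ligase atrogin-1, was at 228, 275 and 317 CPM against 166, 193 and 232 CPM, with overlap (log2 fold change -0.50, SE 0.107). Lat2, Rassf2 and Ppp3r1 had values of -1.198, -0.85 and -0.56; Ppp3r1 encodes the regulatory subunit of calcineurin. These 11 genes had edgeR adjusted p of 0.0526 to 0.0546, and without gene-trap replicates 1 to 4 none was called.

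Stress, signalling and structural lists held few or no calls. Over all 11693 genes tested the shares called were 0.205% by edgeR, 4.11% by DESeq2 and 2.38% by limma voom. At an unadjusted p under 0.05, 1260 of all genes were higher and 1126 lower. Of 20 genes of folding in the endoplasmic reticulum 0 passed by edgeR, with 1 higher and 6 lower at an unadjusted p under 0.05; DESeq2 and limma voom each called Canx lower. The median of that list was -0.25, and -0.06 without gene-trap replicates 1 to 4. Canx, a membrane chaperone of that compartment, was at 362 ± 47.7 CPM in wild type and 279 ± 29.2 CPM in gene trap (edgeR adjusted p = 0.0865). Of 19 immediate early genes 0 passed by edgeR or DESeq2 and limma voom called Ier3 higher, with 1 higher and 3 lower at an unadjusted p under 0.05; the median was -0.21, and 0.09 without those replicates. Of 33 interferon-stimulated genes 0 passed by edgeR, with 2 higher and 5 lower at an unadjusted p under 0.05, and DESeq2 and limma voom each called Irf1 and Psmb9 lower. Irf1, a transcription factor of that response, was at 46.7, 62.0 and 73.6 CPM against 29.7, 43.1 and 48.2 CPM (edgeR log2 fold change -0.53, SE 0.127, adjusted p = 0.0619). Of 25 genes of H3K27 and H3K4 methylation, Uty among them, Uty alone passed by edgeR, and DESeq2 and limma voom called Kdm5d as well. The other 24 had log2 fold changes of -1.06 (Kdm5d) to 0.31 (Ezh2). Of all 25, 20 were below 0, with 0 higher and 4 lower at an unadjusted p under 0.05. The median was -0.16, and -0.06 without gene-trap replicates 1 to 4. Of 15 androgen-responsive genes 0 passed by any of the 3 tools, with 2 higher and 0 lower at an unadjusted p under 0.05 and a median of 0.04 that was -0.03 without gene-trap replicates 1 to 4. Of 24 sarcomere genes 0 passed by edgeR, with 6 higher and 1 lower at an unadjusted p under 0.05, and DESeq2 and limma voom each called Csrp3 higher. Of 11 fetal and stress genes of the heart 0 passed by any of the 3 tools, with 2 higher and 2 lower at an unadjusted p under 0.05. Kcnj2, of the inward rectifier potassium current, was at 7.19, 14.3 and 28.0 CPM against 1.61, 7.52 and 12.8 CPM (edgeR log2 fold change -1.13, SE 0.316, adjusted p = 0.0865), with 0 of 20 genes of calcium cycling and ion channels called by edgeR and 1 higher and 4 lower at an unadjusted p under 0.05. DESeq2 called Kcnj2 and Jph2 lower and limma voom Kcnj2. Of 25 endothelial and ephrin signalling genes Efna2 alone passed by edgeR, with 3 higher and 8 lower at an unadjusted p under 0.05; Vegfa, the endothelial growth factor gene, was at 159 ± 24.5 CPM in wild type and 119 ± 17.98 CPM in gene trap (edgeR adjusted p = 0.0875). In that list DESeq2 called Tek higher and Vegfa and Ephb4 lower, with no adjusted p for Efna2, and limma voom Vegfa and Efna2 lower. Of 14 FoxO and muscle atrophy genes, 16 glucocorticoid targets, 30 extracellular matrix genes, 17 clock genes, 17 cell cycle genes and 20 genes of mitochondrial DNA and RNA maintenance, 0 passed by edgeR. At an unadjusted p under 0.05 they held, in this order, 2, 1, 2, 0, 0 and 5 higher and 2, 2, 1, 2, 0 and 4 lower genes. DESeq2 called Fbxo32 and Bhlhe40 lower in these lists, and limma voom the same 2 and Glul lower and Sparc and Slirp higher.

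**Figure D5:**
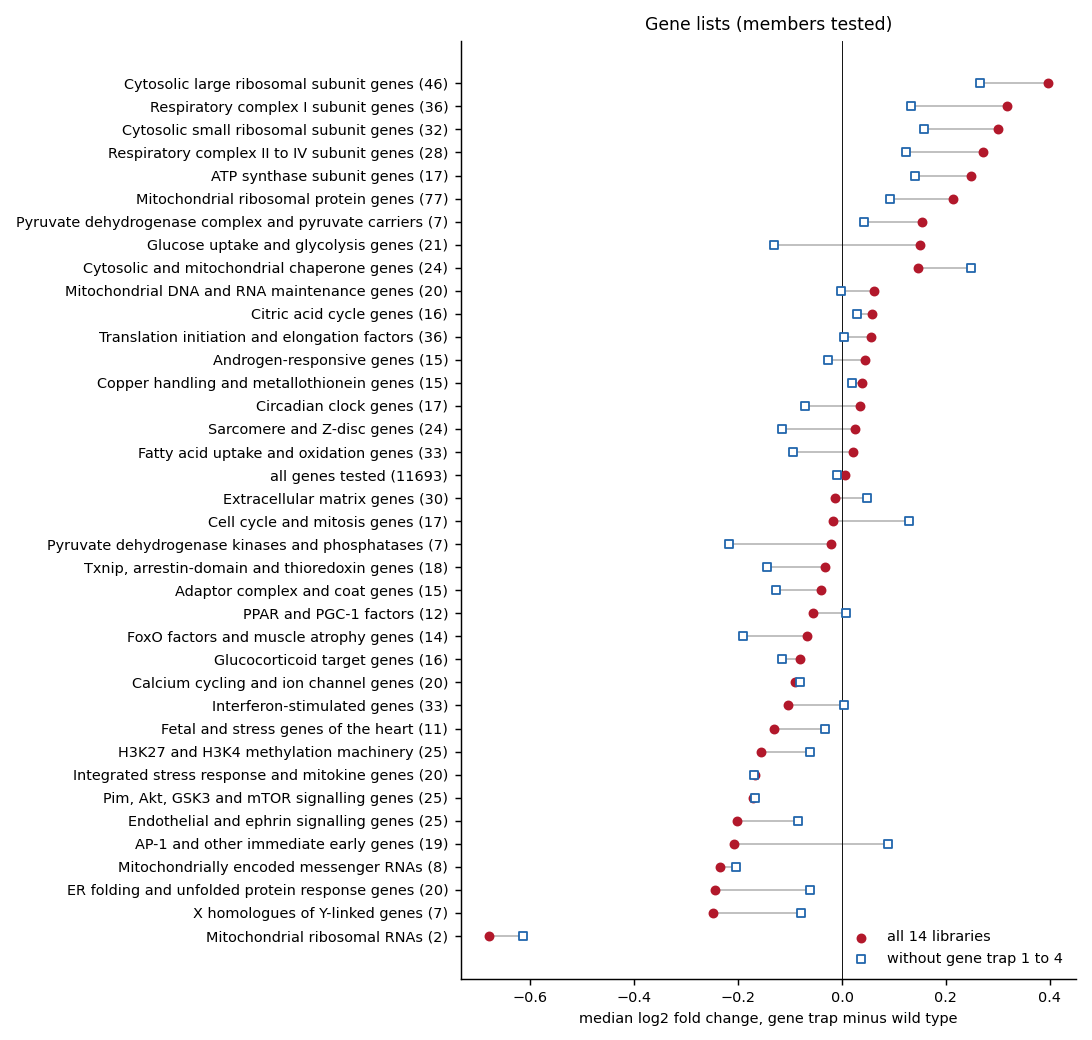
Median log2 fold change (gene trap minus wild type) of each gene list with all 14 libraries (circles) and without gene-trap replicates 1 to 4 (squares), with the number of members tested in brackets. The list of Y-linked genes, with a median of -1.91, is not drawn. Of the lists drawn, the large ribosomal subunit list is highest at 0.40 and the pair of mitochondrial ribosomal RNAs lowest at -0.68. The glycolysis and immediate early lists are among those on opposite sides of 0 in the 2 settings.

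Markers of 15 cell types were counted beside the lists. Of 63 marker genes tested 0 passed by edgeR or limma voom, and DESeq2 called 1 (Fabp3, also a fatty acid gene, lower). Before adjustment edgeR gave 6 higher and 9 lower markers, against 1260 higher and 1126 lower of all 11693 genes tested. Endothelial markers summed to 1530 to 2490 CPM in wild-type and 1070 to 2970 CPM in gene-trap libraries, fibroblast markers to 1480 to 2150 and 1690 to 2480 CPM, and macrophage markers to 160 to 414 and 140 to 216 CPM. Erythroid markers summed to 1700 to 4320 CPM in wild-type and 2300 to 7190 CPM in gene-trap libraries, with a median log2 fold change of 0.38 over 5 tested markers. Atrial markers, which would show tissue from beyond the ventricle, summed to 151 to 553 and 261 to 528 CPM. Fat markers summed to 0.253 to 8.26 CPM in wild-type and 0.595 to 4.18 CPM in gene-trap libraries. Skeletal muscle markers summed to 1880 to 2760 and 2180 to 2980 CPM. Single members of the fat, atrial and skeletal muscle lists, Lep, Bmp10 and Myh4, had 0 counts in all 14 libraries, while the lists as a whole did not.

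Against the sham-operated mice, the genotype effect on Pdk4 differed. With all 4 groups fitted together, Pdk4 had a log2 fold change of 0.37 (SE 0.394) in sham ventricles, and the effect in castrated less that in sham was -2.61 (SE 0.538, edgeR adjusted p = 0.0062). In this test 2474 of 12291 genes passed, or 20.1%, so that a call is common in it; 8 of the 24 genes passed. Besides Pdk4 these were Krtcap2 (0.92), Rps4x (0.84), Rpl19 (0.77), Rpl41 (0.58), Ap4s1 (0.41), F830016B08Rik (-1.84) and mt-Rnr2 (-1.06). For Txnip the difference was -0.92 (SE 0.41, edgeR adjusted p = 0.105) and for Pim3 -0.21 (SE 0.194, edgeR adjusted p = 0.439). Without gene-trap castrated replicates 1 to 4, 0 genes passed, with 851 higher and 870 lower at an unadjusted p under 0.05, and Pdk4 had a difference of -2.33 (SE 0.705, edgeR adjusted p = 0.244). DESeq2 and limma voom, with those replicates, called 2920 and 3152 genes. In the edgeR fit to all 4 groups with all libraries, 3207 of 12291 genes passed in sham ventricles, so that a call is common there too. Of the 24 genes 7 passed there, among them Uty, Ddx3y, Pim3 at -0.50 and Slc31a1 at 0.39.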

How the data were processed

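Left ventricular RNA of 14 castrated libraries, 7 per genotype, was sequenced from transcript 3′ ends with a QuantSeq FWD kit, as the labels' protocols state. The submitters' processing notes list featureCounts 1.6.0, STAR, DESeq2 1.22.2, CASAVA 1.4, FastQC and the builds mm10 and GRCm38, without roles; no source used here states whether counting used strand. The deposited table holds raw counts per gene and library without normalization, per the file headers. It also holds the authors' own DESeq2 comparison: mean signal after scaling, log2 fold change with its error, a test score and p-values, used here only as an alternative. The table held 47642 genes with counts; 4984 rows without counts were dropped. The 5 entries that name no gene entered neither library sizes nor tests; each castrated column held 41.9% to 46.8% reads without a unique alignment, 2.66% to 4.62% outside genes and 0.277% to 0.345% ambiguous ones.

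Groups came from the sample titles. Genes were tested on the 14 libraries with edgeR 4.0.16 in R 4.3.3 (quasi-likelihood F test, robust dispersion, TMM scaling, filterByExpr), with Benjamini-Hochberg adjustment over all genes tested and a threshold of 0.05; the difference from sham used a fit to 4 groups and 26 libraries. Standard errors were taken as the size of the log2 fold change divided by the root of its F. CPM use TMM-scaled library sizes, except for marker sums and limits of 3 counts, which use unscaled gene counts. Limits of 3 counts cover counting error only (0.319 to 0.454 CPM over these libraries). List means are of log2 CPM with a prior count of 2. Alternatives were DESeq2 1.42.0, limma 3.58.1 voom with sample weights, DESeq2 size factors, no filter, a group mean of at least 10 counts, no mitochondrially encoded genes, a fit to 4 groups, the authors' adjusted p, the replicate number as a block, leaving out each library, and leaving out gene-trap replicates 1 to 4. The fits were tested on simulated counts.

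Named genes are all genes called by edgeR, the 6 higher and 6 lower with the smallest edgeR p among genes called by DESeq2 and limma voom but not by edgeR (no predicted genes or Riken clones), 4 Y-linked genes with their X homologues, and up to 4 members with the smallest p of each list described. A few genes that this rule names are not reported here. Pdk1, Pdk2, Pdk3, Ezh2, Hspd1, Hspa1b and Hspb3 were named after their values were seen. The comparison, the 38 lists and the marker sets were chosen with earlier results of these data known. Shared transcript ends were measured on the final 400 nt of GENCODE M21 transcripts, as the percent of 31-nt words recurring in other genes. In this annotation 8 of the 24 called genes overlap an exon of a gene on the opposite strand. For 9 of the 24 over 10% of the words recurred, and for mt-Nd2 and Atp5c1 30.3% and 19.2% did.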

Additional observations from a re-analysis of the deposited data

Results flagged for a closer look

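The levels of 26 genes and the means of 38 lists were looked at in each genotype, 128 groups of 7 libraries, and in 5 of them 1 library lay far from the rest of its group; chance alone gives about 1 in 20 groups. Pdk4 in gene-trap replicate 5 was at 18.3 CPM, against 6.81 to 9.66 CPM in the other gene-trap libraries. Eif2s3y in gene-trap replicate 2 was at 13.5 CPM, against 2.97 to 7.34 CPM. The mean of the pyruvate dehydrogenase kinase and phosphatase list in wild-type replicate 1 was -0.15 (centred log2 CPM), against 0.146 to 0.294 in the other wild-type libraries. In wild-type replicate 2 the mean of the mitochondrial ribosomal protein list was 0.0479, against -0.138 to -0.0632, and that of the citric acid cycle list 0.152, against -0.135 to -0.0223.

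For 8 genes the genotype effect in castrated less that in sham ventricles passed the test of the difference itself (edgeR, 4-group fit, in which 20.1% of genes passed). The differences in log2 fold change were -2.61 for Pdk4, 0.413 for Ap4s1, 0.774 for Rpl19, -1.84 for F830016B08Rik, 0.579 for Rpl41, 0.922 for Krtcap2, 0.843 for Rps4x and -1.06 for mt-Rnr2. Without gene-trap castrated replicates 1 to 4 none of these passed, and the values were -2.33, 0.31, 0.27, -1.51, 0.35, 0.54, 0.37 and -0.90 in the same order.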

How the results depend on the processing

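The count of 24 calls was 481 by DESeq2, 278 by limma voom, 73 with no filter, 15 without mitochondrially encoded genes, 257 in the fit to all 4 groups, 2 without gene-trap castrated replicates 1 to 4 and 515 by the authors' adjusted p; the cause was not tested. It was 24 with DESeq2 size factors and 17 with a group mean of at least 10 counts. Leaving out single libraries gave 4 to 418 calls, 56 to 169 genes whose groups do not overlap (49 with all) and 1625 to 3673 genes for the difference from sham (2474 with all). Without gene-trap castrated replicates 1 to 4, 448 genes did not overlap, a number raised by having 3 libraries in a group, and 0 passed for the difference from sham. No pairing by replicate number was seen in deviations from the group means. Correlations of same-numbered libraries were -0.444 to 0.0797, and 0 of 7 gene-trap libraries had the same-numbered wild-type library as best match. A weak pairing could go unseen in this check. With the replicate number as a block 3 genes were called, and 2758 for the difference. Among single genes no sign changed in any alternative. Txnip and Efna2 were not called with no filter (adjusted p = 0.0629 and 0.0556), nor Rpl39 with DESeq2 size factors (adjusted p = 0.0537). Medians of 16 of 38 lists moved by more than the spread between libraries without gene-trap replicates 1 to 4. At 6612984 to 9399241 counts per library, genes under a few CPM such as Efna2 and Gdf15 rest on few reads each.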
